A study of Homo sapiens with 6 samples.

Results

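The receptor tyrosine kinases that recur in gastric cancer as drug targets or markers were described in HGC-27, an established line of undifferentiated human gastric cancer cells. They are the 10 genes EGFR, ERBB2, ERBB3, MET, FGFR1, FGFR2, IGF1R, PDGFRA, PDGFRB and AXL, and were chosen by name: the rows of the count table whose Ensembl identifiers map to these symbols in GENCODE. All 10 were found among the 58825 genes of the table, and all 10 passed the filter on low counts that left 19528 genes for testing. The rule uses no measured value, though the receptors were chosen with earlier results of these data known.

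RNA-seq was done on 6 libraries of HGC-27 cells, 3 labelled GC0643 overexpression and 3 labelled Vector control. GC0643 is a gene that the study predicted from sequence absent from the reference genome, and the libraries compare HGC-27 cells made to carry it with cells carrying the empty vector. The GC0643 line was made by retroviral infection and puromycin selection, and whether the vector line went through the same steps is not spelled out. The labels do not say whether the 3 libraries of a group came from separate cultures or separate infections, so the p-values measure the spread between these libraries, which may be technical. Because GC0643 itself was not analysed here, the direction of every difference rests on the labels. The study's sources do not all appear to give the direction the same way, and every sign printed here would turn if the labels were exchanged. Total counts lay between 20376722 and 24069166 per library, and levels are given in CPM, counts scaled to a common library total.

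A receptor tyrosine kinase sits in the cell membrane, binds a growth factor outside the cell, pairs with another receptor and phosphorylates tyrosines on its own tail and its partner's. Adaptor proteins dock on those tyrosines and pass the signal to RAS and the MAP kinases and to PI3K and AKT, which drive division, survival and movement. In stomach tumours ERBB2, MET, FGFR2 and EGFR are known from gene amplification, and ERBB2 and FGFR2 are drug targets. The PDGF receptors are best known from fibroblasts and pericytes, and AXL from cells with mesenchymal features.

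None of the 10 receptors passed the test across all genes. Of the 19528 genes tested, 0% had an adjusted p under 0.05 in edgeR's quasi-likelihood test with Benjamini-Hochberg adjustment, and so did 0 of the 10 receptors. With edgeR's likelihood ratio test 16 genes passed, with DESeq2 1 and with limma voom 0, none of them a receptor. PDGFRA was the 1 receptor higher in GC0643 overexpression libraries at an unadjusted p under 0.05, where 13.1% of all genes tested were also higher. No receptor was lower at that threshold, against 5.26% of all genes tested. Over all genes these shares stand for 2553 higher and 1028 lower, which became 559 and 687 after correction for GC content and 1653 and 1701 after correction for transcript length. With a fold change over 1.5 added, 0 of the 10 receptors were higher and 0 were lower, against 1.6% and 0.871% of all genes. IGF1R was the 1 receptor whose groups did not overlap, and it was lower in GC0643 overexpression libraries, as 10.5% of all genes were. No receptor had its GC0643 overexpression libraries all above its Vector control libraries, which 11.8% of all genes had.

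**Figure D1:**
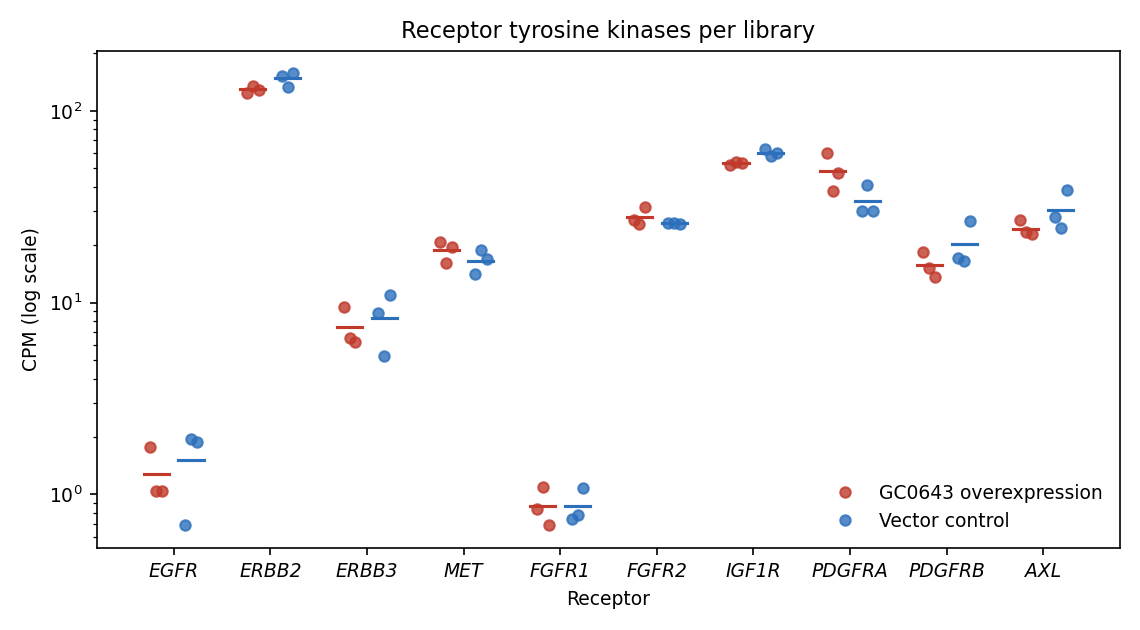
Scaled counts (CPM, log axis) of each receptor in every library, with 3 GC0643 overexpression libraries (red, left) and 3 Vector control libraries (blue, right), and a bar at each group mean. The groups overlap for every receptor but IGF1R and the spread within a group is widest for EGFR and ERBB3. Heights of different receptors are not corrected for length.

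The stretches of DNA around the start sites are shown for the receptors that lay farthest apart between the groups, since PDGFRA had the largest positive difference, PDGFRB and AXL the largest negative ones, and IGF1R the groups that did not overlap. Each window runs 250 bases before to 50 bases after the start of the gene in RefSeq (GRCh38.p14), read 5′ to 3′ on the gene's strand. Capitals mark GC boxes (GGGCGG, or CCGCCC on the other strand) and CCAAT boxes (CCAAT, or ATTGG on the other strand). TATA boxes (TATAAA, or TTTATA on the other strand) were also searched for, and none of these 4 windows holds that motif. The windows lie at chr4:54229043-54229342 on the plus strand for PDGFRA, chr5:150155796-150156095 on the minus strand for PDGFRB, chr19:41218973-41219272 on the plus strand for AXL and chr15:98648289-98648588 on the plus strand for IGF1R.
PDGFRA: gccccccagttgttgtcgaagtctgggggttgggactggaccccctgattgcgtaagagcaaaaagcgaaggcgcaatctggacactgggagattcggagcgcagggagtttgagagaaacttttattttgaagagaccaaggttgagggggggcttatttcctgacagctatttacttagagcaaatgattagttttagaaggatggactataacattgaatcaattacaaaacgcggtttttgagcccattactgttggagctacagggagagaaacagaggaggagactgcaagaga
PDGFRB: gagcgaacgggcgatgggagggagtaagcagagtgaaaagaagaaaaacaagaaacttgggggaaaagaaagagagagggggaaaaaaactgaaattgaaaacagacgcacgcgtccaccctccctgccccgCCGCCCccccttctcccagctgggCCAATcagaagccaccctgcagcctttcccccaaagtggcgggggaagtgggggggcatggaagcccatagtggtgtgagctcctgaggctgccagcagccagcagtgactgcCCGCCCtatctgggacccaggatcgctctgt
AXL: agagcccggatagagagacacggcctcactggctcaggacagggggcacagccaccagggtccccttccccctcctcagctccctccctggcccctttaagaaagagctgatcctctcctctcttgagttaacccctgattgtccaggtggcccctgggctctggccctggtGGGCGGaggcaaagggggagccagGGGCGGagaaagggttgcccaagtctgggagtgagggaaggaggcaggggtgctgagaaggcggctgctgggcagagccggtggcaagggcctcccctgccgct
IGF1R: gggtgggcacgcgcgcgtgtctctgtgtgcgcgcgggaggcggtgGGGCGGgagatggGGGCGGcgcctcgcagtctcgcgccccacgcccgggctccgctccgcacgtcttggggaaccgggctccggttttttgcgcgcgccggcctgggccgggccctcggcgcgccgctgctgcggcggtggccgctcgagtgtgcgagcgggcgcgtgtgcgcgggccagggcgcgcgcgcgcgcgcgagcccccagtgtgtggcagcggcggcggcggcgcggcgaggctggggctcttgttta
The PDGFRA window holds no GC box and no CCAAT box, has 8 CpG dinucleotides and is 47% G and C. The PDGFRB window holds 2 GC boxes and 1 CCAAT box, has 11 CpG and is 59.3% G and C. The AXL window holds 2 GC boxes, has 7 CpG and is 66% G and C, and the IGF1R window holds 2 GC boxes, has 55 CpG and is 79.7% G and C. Among 15345 windows of the same length, 61.8% hold a GC box, 36.6% a CCAAT box and 9.42% a TATA box, and the median number of CpG is 23. A match to these letters is a description of the window only.

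The labelled cell type was set beside markers, without a verdict on the label. Of 17 markers of gastric epithelium, 14 averaged under 1 CPM and 4 (TFF2, GKN1, GKN2 and PGC) had no count in any library. The summed level of the 17 lay between 20.3 and 26.3 CPM in GC0643 overexpression libraries and between 23.2 and 30.5 CPM in Vector control libraries. CDH1 and EPCAM, which hold epithelial cells together, had at most 9 counts in any library. The keratins KRT18, KRT19 and KRT20 had at most 3. VIM, the intermediate filament of mesenchymal cells, averaged 3218 ± 142 CPM in GC0643 overexpression libraries and 3144 ± 120 CPM in Vector control libraries (SD, n = 3 each). The 10 markers of fibroblasts and pericytes, the cells in which the PDGF receptors are usually found, all averaged above 1 CPM in each group. They summed to between 4308 and 5073 CPM in GC0643 overexpression libraries and to between 4269 and 4916 CPM in Vector control libraries. Among them the collagen COL3A1 averaged 2544 ± 279 CPM in GC0643 overexpression libraries and 2507 ± 192 CPM in Vector control libraries (SD, n = 3 each). These fibroblast and pericyte sums came mainly from COL3A1 and COL1A1. RGS5, CSPG4 and ACTA2, markers of pericytes and contractile cells, averaged between 1.26 and 10.1 CPM, and the mesenchymal markers CDH2 and TWIST2 were under 1 CPM. The epithelial markers above 1 CPM were MUC1, CDX2 and KRT8, which averaged 9.63, 6.28 and 6.22 CPM in GC0643 overexpression libraries and 11.6, 7.94 and 5.83 CPM in Vector control libraries. Endothelial markers summed to between 3.78 and 6.21 CPM and leukocyte markers to between 6.23 and 8.32 CPM over all 6 libraries, and PECAM1, CD3E, CD3D and MS4A1 had no count.

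To order the receptors by level, CPM was divided by the length of the canonical transcript in kilobases. ERBB2 had the highest level per length, 28.3 ± 1.22 CPM per kilobase in GC0643 overexpression libraries and 32.3 ± 2.68 in Vector control libraries (SD, n = 3 each). Over all 6 libraries it averaged 30.3 CPM per kilobase, 4.70 times PDGFRA, which came next with 6.45. FGFR2 with 5.83, AXL with 5.79, IGF1R with 4.65, PDGFRB with 3.14 and MET with 2.59 CPM per kilobase followed, each overlapping its neighbour in the order over the libraries. ERBB3 averaged 1.40 CPM per kilobase, and its libraries lay apart from those of both MET and FGFR1. FGFR1 and EGFR came last with 0.152 and 0.140 CPM per kilobase and could not be ordered between themselves. The order in the middle depends on which length is used, since dividing by the union of all annotated exons put AXL at rank 2 and FGFR2 at rank 7. Of 13766 protein-coding genes tested, ERBB2 lay above 81.8% on the per-length scale, FGFR1 above 1.55% and EGFR above 1.35%, and the median gene had 7.20 CPM per kilobase.

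Among the 40 receptor tyrosine kinases tested, the 10 were mostly in the middle or at the bottom by level per length. Of 58 receptor tyrosine kinases listed, 40 were tested and 3 had no count in any library. Only ERBB2, at rank 5, was among the top 10 by level per length. PTK7, a pseudokinase of Wnt signalling, led with 76.0 CPM per kilobase, followed by FGFR4 with 45.3, the ephrin receptor EPHB4 with 36.8 and FGFR3 with 30.6. ROR2, another Wnt receptor, came just after ERBB2 with 25.04. The FGF receptors of these cells were thus mainly FGFR4 and FGFR3 at the RNA level, with FGFR2 at rank 15 and FGFR1 next to last among those tested.

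**Figure D2:**
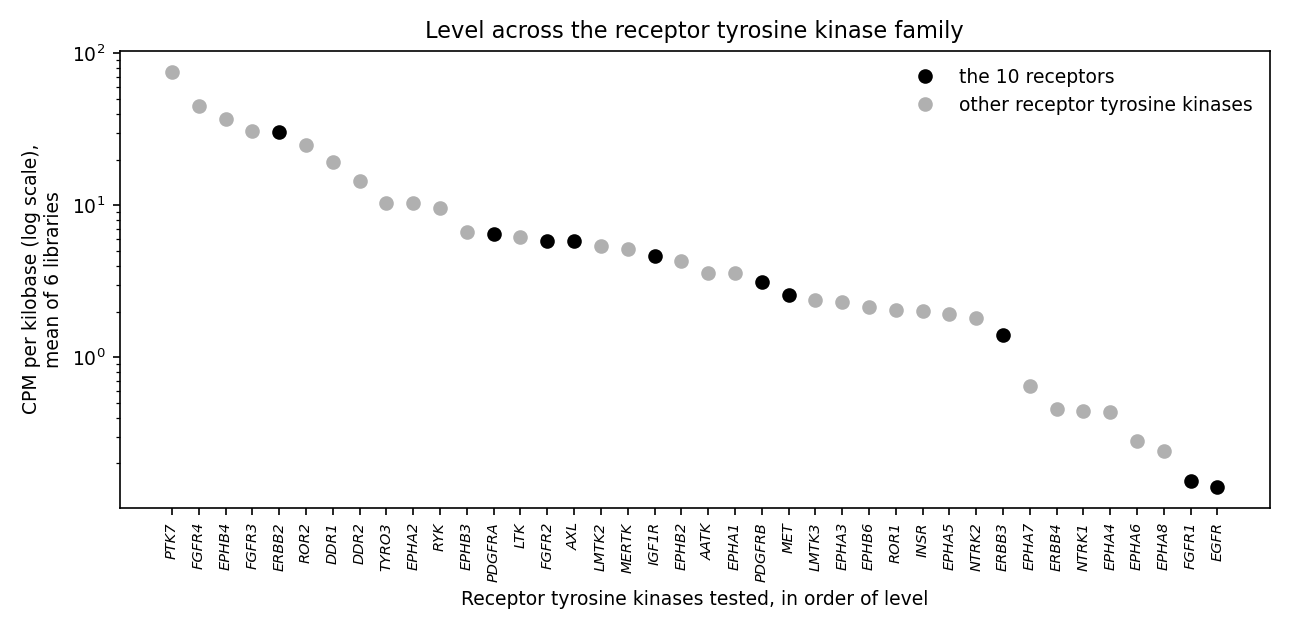
Level per transcript length (CPM per kilobase, log axis, mean of 6 libraries) of the 40 receptor tyrosine kinases tested, from high to low. Black points are the 10 receptors and grey points the others. ERBB2 stands at rank 5, and FGFR1 and EGFR close the order.

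The EGF receptor family was represented on the per-length scale mainly by ERBB2, the member with no known ligand, which signals through the partner it pairs with. ERBB2 (ENSG00000141736) spans chr17:39687914-39730426 in GRCh38. It had 124, 135 and 128 CPM in GC0643 overexpression libraries, against 152, 134 and 157 CPM in Vector control libraries. Vector control replicate 2 lay inside the range of the other group, so the groups overlapped. The log2 fold change was -0.19 (SE 0.12, 95% interval -0.44 to 0.06, edgeR adjusted p = 0.35). Its exons overlap those of MIEN1 by 571 bases and those of PGAP3 by 144 bases on the opposite strand, and the counting options, strand included, are stated only for the study's tumour RNA-seq. Those options name no strand and count a read in shared exons for every gene there (featureCounts with -O). MIEN1 and PGAP3 had log2 fold changes of -0.23 and -0.46 (edgeR adjusted p = 0.31 and 0.26).

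ERBB3 (ENSG00000065361, chr12:56076799-56103505) has a nearly inactive kinase and binds neuregulins, and its tail recruits PI3K when ERBB2 phosphorylates it. It had 9.52, 6.56 and 6.26 CPM in GC0643 overexpression libraries, against 8.82, 5.24 and 10.9 CPM in Vector control libraries. Each group held both high and low libraries, and the log2 fold change was -0.16 (SE 0.25, edgeR adjusted p = 0.70). Without Vector control replicate 3, its highest library, the log2 fold change was 0.08. ERBB3 shares 31 exonic bases on the same strand with ENSG00000257411, a protein-coding gene with between 4087 and 5162 counts per library. That gene had a log2 fold change of 0.05 (edgeR adjusted p = 0.84). How reads in the shared bases were counted in these libraries is not stated.

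EGFR (ENSG00000146648, chr7:55019017-55211628), the receptor of EGF and TGF-alpha, had few reads, with 38, 22 and 21 counts in GC0643 overexpression libraries and 14, 40 and 45 counts in Vector control libraries. These counts correspond to 1.77, 1.04 and 1.04 CPM in GC0643 overexpression libraries and to 0.69, 1.94 and 1.87 CPM in Vector control libraries. The lowest and the highest library were both Vector control libraries. The log2 fold change was -0.23 with a 95% interval of -1.06 to 0.59 (edgeR adjusted p = 0.74). This interval spans fold changes between 0.480 and 1.51, so that smaller differences were not detectable in these libraries.

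Among ligands of this family, 5 of 11 passed the filter, and their median log2 fold change was -0.00 against 0.02 over all genes tested. Past an unadjusted edgeR p of 0.05 were 0 of the 5, beside 13.1% of all genes higher and 5.26% lower. NRG2, a neuregulin, averaged 6.37 ± 0.51 CPM in GC0643 overexpression libraries and 7.76 ± 1.59 CPM in Vector control libraries (SD, n = 3 each). HBEGF, a membrane-bound ligand of EGFR, averaged 4.83 ± 0.69 CPM in GC0643 overexpression libraries and 5.32 ± 0.85 CPM in Vector control libraries (SD, n = 3 each). NRG4, a ligand of ERBB4, had a log2 fold change of 0.19 (edgeR adjusted p = 0.57).

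MET (ENSG00000105976, chr7:116672196-116798377) is the receptor of hepatocyte growth factor, which fibroblasts secrete. It had 20.7, 16.1 and 19.4 CPM in GC0643 overexpression libraries, against 14.0, 18.7 and 16.9 CPM in Vector control libraries. The groups overlapped, with a log2 fold change of 0.18 (SE 0.16, 95% interval -0.16 to 0.52, edgeR adjusted p = 0.51). HGF, its ligand, stayed under 1 CPM in every library. SPINT2, an inhibitor of the protease that activates HGF, had 2.85, 2.22 and 2.51 CPM in GC0643 overexpression libraries, against 3.84, 3.49 and 3.62 CPM in Vector control libraries. The groups did not overlap, with a log2 fold change of -0.53 (edgeR adjusted p = 0.26). HGF and SPINT2 were the only 2 of the 6 genes of this list that passed the filter.

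FGFR2 (ENSG00000066468, chr10:121478332-121598458) binds FGF7 and FGF10 through its epithelial isoform. Its Vector control libraries were nearly identical, at 26.0, 25.9 and 25.7 CPM, and its GC0643 overexpression libraries had 26.8, 25.8 and 31.7 CPM. Only GC0643 overexpression replicate 3 stood clear of the rest, and the log2 fold change was 0.12 (SE 0.14, 95% interval -0.17 to 0.41, edgeR adjusted p = 0.61). FGFR1 (ENSG00000077782, chr8:38400215-38468834), the mesenchymal FGF receptor, had 18, 23 and 14 counts in GC0643 overexpression libraries and 15, 16 and 26 counts in Vector control libraries. Its log2 fold change of 0.00 had a 95% interval of -0.77 to 0.78 (edgeR adjusted p = 0.996), and its sign turned with several settings. FGFR1 shares 138 exonic bases with LETM2 on the opposite strand, which had between 87 and 162 counts per library.

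Of 22 FGF ligands, 5 passed the filter, and their median log2 fold change was 0.19, or -0.04 after correction for GC content. Past an unadjusted edgeR p of 0.05 were 0 of the 5, beside 13.1% of all genes higher and 5.26% lower. FGF11, which stays inside the cell and does not bind the receptors, averaged 8.05 ± 1.58 CPM in GC0643 overexpression libraries and 8.70 ± 2.04 CPM in Vector control libraries (SD, n = 3 each). FGF12, also intracellular, had a log2 fold change of -0.00 (edgeR adjusted p = 0.996). FGF2, a secreted ligand of most FGF receptors, had a log2 fold change of 0.36 (edgeR adjusted p = 0.53) at 1.40 ± 0.33 CPM in GC0643 overexpression libraries and 1.09 ± 0.32 CPM in Vector control libraries (SD, n = 3 each). FGF8 lay under 1 CPM in all 6 libraries.

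IGF1R (ENSG00000140443, chr15:98648539-98964530), the receptor of IGF1 and IGF2, varied little within the groups. It had 52.2, 54.2 and 53.3 CPM in GC0643 overexpression libraries, against 63.4, 57.8 and 60.3 CPM in Vector control libraries. All 3 GC0643 overexpression libraries were below all 3 Vector control libraries. The difference was small, a log2 fold change of -0.18 (SE 0.12, 95% interval -0.44 to 0.07), and did not pass (edgeR adjusted p = 0.38).

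Of 10 insulin-like growth factors and binding proteins, 8 passed the filter. Of these, 6 were below 0 on the log2 scale, beside 9392 of all 19528 genes tested. Their median was -0.18 before and -0.01 after GC correction (described with the GC values of the receptors). IGFBP4, a secreted inhibitor of IGF, averaged 253 ± 12.2 CPM in GC0643 overexpression libraries and 302 ± 44.3 CPM in Vector control libraries (SD, n = 3 each), with an edgeR adjusted p of 0.28. IGFBP2, another of these binding proteins, had a log2 fold change of -0.17 (edgeR adjusted p = 0.42). IGFBP6, which prefers IGF2, averaged 32.4 ± 0.77 CPM in GC0643 overexpression libraries and 38.5 ± 5.22 CPM in Vector control libraries (SD, n = 3 each), and its groups did not overlap (edgeR adjusted p = 0.31). None of the 8 was past an unadjusted edgeR p of 0.05, beside 13.1% of all genes higher and 5.26% lower.

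The PDGF receptors lay in opposite directions. PDGFRA (ENSG00000134853, chr4:54229280-54298245), which binds every PDGF chain but PDGF-D, had 60.4, 38.3 and 47.2 CPM in GC0643 overexpression libraries, against 30.05, 41.1 and 29.98 CPM in Vector control libraries. GC0643 overexpression replicate 1 was the highest, and Vector control replicate 2 lay above GC0643 overexpression replicate 2, so the groups overlapped. The fold change was 1.44 (95% interval 1.11 to 1.87), or 0.53 on the log2 scale (SE 0.18), with an unadjusted edgeR p of 0.00886 and an adjusted p of 0.26. Without Vector control replicate 2 the log2 fold change was 0.70 and the adjusted p 0.0154, the only setting in which any receptor passed, and 3813 of all genes passed with it. Without GC0643 overexpression replicate 1 it was 0.34 (edgeR adjusted p = 0.48).

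PDGFRA shares 1533 exonic bases on the same strand with ENSG00000282278, a protein-coding gene of the annotation without a symbol there. That gene had 847, 643 and 701 counts in GC0643 overexpression libraries, against 502, 595 and 605 counts in Vector control libraries, with a log2 fold change of 0.41 (edgeR adjusted p = 0.26). All 3 GC0643 overexpression libraries were above all 3 Vector control libraries. Under the counting options stated for the tumour RNA-seq, a read in the shared exons counts for both genes. Whether those options were used for these libraries is not stated, so the value of PDGFRA is uncertain to that extent.

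PDGFRB (ENSG00000113721, chr5:150113839-150155872), the receptor of PDGF-B and PDGF-D and a marker of pericytes, had 18.4, 15.1 and 13.6 CPM in GC0643 overexpression libraries, against 17.1, 16.4 and 26.7 CPM in Vector control libraries. Vector control replicate 3 stood above all the others, which overlapped. The log2 fold change was -0.36 (SE 0.19, 95% interval -0.77 to 0.05, edgeR adjusted p = 0.30), and -0.11 without Vector control replicate 3 (edgeR adjusted p = 0.80).

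All 4 PDGF ligands passed the filter. PDGFC, a ligand of PDGFRA, had 41.8, 30.6 and 33.9 CPM in GC0643 overexpression libraries, against 27.1, 32.4 and 27.9 CPM in Vector control libraries, with a log2 fold change of 0.28 (edgeR adjusted p = 0.30). PDGFA, another ligand of PDGFRA, had 21.4, 20.1 and 17.1 CPM in GC0643 overexpression libraries, against 21.5, 22.8 and 22.5 CPM in Vector control libraries. The PDGFA groups did not overlap, with a log2 fold change of -0.19 (edgeR adjusted p = 0.44). The cells thus held RNA of both PDGFRA and its ligands. Past an unadjusted edgeR p of 0.05 were 0 of the 4 ligands, beside 13.1% of all genes higher and 5.26% lower.

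AXL (ENSG00000167601, chr19:41219223-41261766) is a TAM receptor that binds GAS6 and is known from mesenchymal and drug-tolerant tumour cells. It had 26.8, 23.2 and 22.8 CPM in GC0643 overexpression libraries, against 27.8, 24.5 and 38.6 CPM in Vector control libraries. As with PDGFRB, Vector control replicate 3 was far above the rest and the other libraries overlapped. The log2 fold change was -0.32 (SE 0.17, 95% interval -0.68 to 0.04, edgeR adjusted p = 0.30), or -0.11 without Vector control replicate 3. When Vector control replicate 2 was left out instead it was -0.45 (edgeR adjusted p = 0.0501). In that fit 3813 of all genes had an adjusted p under 0.05, and AXL did not.

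Of the TAM ligands, GAS6 averaged 28.6 ± 2.18 CPM in GC0643 overexpression libraries and 30.6 ± 6.16 CPM in Vector control libraries (SD, n = 3 each), a log2 fold change of -0.10 (edgeR adjusted p = 0.72). PROS1, protein S, a ligand of the TAM receptors TYRO3 and MERTK, had 13.1, 12.2 and 12.4 CPM in GC0643 overexpression libraries, against 6.55, 10.8 and 7.19 CPM in Vector control libraries. The PROS1 groups did not overlap, and the log2 fold change of 0.62 had an edgeR adjusted p of 0.26.

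Vector control replicate 3 held the highest value of 4 of the 10 receptors, ERBB2, ERBB3, PDGFRB and AXL, and the lowest of 2, FGFR2 and PDGFRA. Its PDGFRB level was 0.61 and its AXL level 0.52 above the mean of the 6 libraries on the log2 scale. GC0643 overexpression replicate 3 held the lowest value of 3 receptors, FGFR1, PDGFRB and AXL. For PDGFRB and AXL this departure of 1 library was larger than the difference between the groups.

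Fold changes moved with the GC content of the transcript over all genes. Spearman's rho between log2 fold change and GC content was -0.67 over all genes tested. In 5 groups of genes of equal size by GC content, low to high, the median log2 fold change was 0.34, 0.23, 0.02, -0.16 and -0.22. Median log2 deviations from the mean of the 6 libraries were also taken per library. In the lowest group they were 0.22, 0.09 and 0.22 in GC0643 overexpression libraries, against -0.25, 0.08 and -0.34 in Vector control libraries. In the highest they were -0.15, -0.05 and -0.12, against 0.11, -0.03 and 0.26. Vector control replicate 2 thus had the sign of the GC0643 overexpression libraries in both groups. PDGFRA, with 42.9% GC, and MET, with 43.5%, are in group 2. PDGFRB with 57.5%, FGFR1 with 55.9% and AXL with 53.9% are in group 4, and ERBB2 with 60.4% is in group 5. Over the 10 receptors Spearman's rho was -0.66 and Pearson's r -0.71, given as a description of 10 genes measured in the same 6 libraries.

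**Figure D3:**
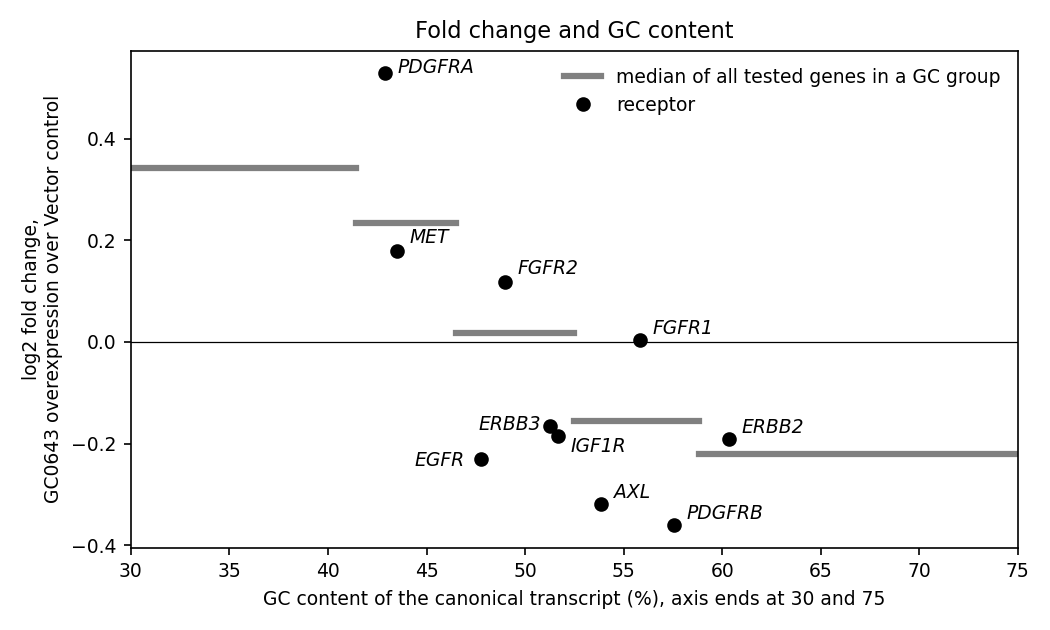
Log2 fold change (GC0643 overexpression over Vector control) of the 10 receptors (points) against the GC content of the canonical transcript in percent. Grey bars give the median log2 fold change of all tested genes in each of 5 groups by GC content, 0.34 at the lowest GC content and -0.22 at the highest. PDGFRA, FGFR2, FGFR1 and ERBB2 lie above the median of their group, and the other 6 receptors below theirs.

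GC correction, which took a smooth trend on GC content out of each library before the same edgeR test, brought 8 of the 10 receptors nearer to 0. PDGFRA went to 0.28 (95% interval -0.01 to 0.57, edgeR adjusted p = 0.77), so that 0 of the 10 receptors were past an unadjusted p of 0.05. PDGFRB went to -0.18, AXL to -0.20 and IGF1R to -0.14, and ERBB2 and MET, at 0.01 and -0.06, changed sign. The median over the 10 was -0.17 without the correction and -0.09 with it, beside 0.02 and -0.00 over all genes tested. Of the ligands and their regulators, PROS1 went to 0.31, SPINT2 to -0.39, PDGFC to 0.05, PDGFA to -0.02 and IGFBP4 to -0.03, and FGF2, NRG4, IGFBP2 and GAS6 changed sign, to -0.04, -0.17, 0.07 and 0.14. What made the libraries differ with GC content was not tested.

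**Figure D4:**
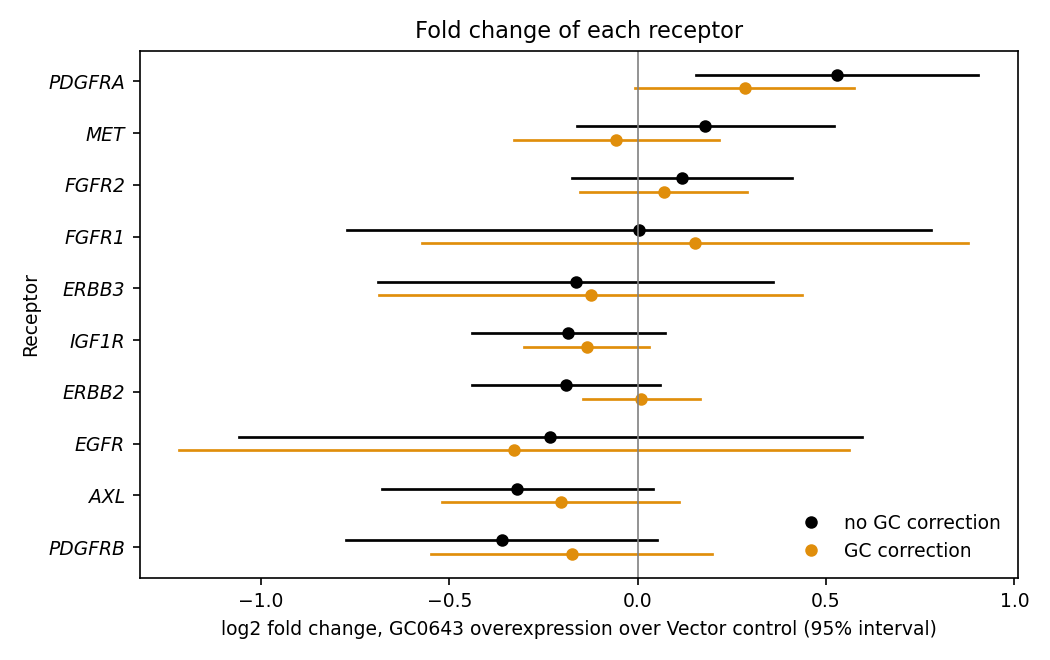
Log2 fold change of each receptor (GC0643 overexpression over Vector control) with its 95% interval from edgeR, without GC correction (black) and with it (orange). Without the correction the PDGFRA interval alone excludes 0, running from 0.15 to 0.90, and with it no interval does.

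Ratios of 2 receptors inside a library do not depend on how libraries are scaled, and 5 pairs were compared with exact two-sided permutation tests, for which the smallest possible p is 0.1. The log2 ratio of PDGFRB to PDGFRA per length was -1.55, -1.18 and -1.64 in GC0643 overexpression libraries, against -0.65, -1.16 and -0.00 in Vector control libraries. The groups did not overlap, though by little between GC0643 overexpression replicate 2 and Vector control replicate 2. The difference of -0.85 had an exact p of 0.1, or 0.5 adjusted over the 5 pairs, and was -0.55 without Vector control replicate 3. After GC correction the log2 fold changes behind it were 0.28 for PDGFRA and -0.18 for PDGFRB, nearer to each other than without it.

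The log2 ratio of AXL to MET per length was 0.91, 1.06 and 0.77 in GC0643 overexpression libraries, against 1.52, 0.92 and 1.73 in Vector control libraries. The groups overlapped, and the difference of -0.48 had an exact permutation p of 0.2, or 0.5 adjusted. After GC correction the log2 fold changes behind it were -0.20 for AXL and -0.06 for MET, nearer to each other than without it. For ERBB2 over EGFR, ERBB3 over ERBB2 and FGFR1 over FGFR2 the differences were -0.06, 0.06 and -0.11 (exact permutation p = 1, 0.9 and 1, each 1 when adjusted). ERBB2 had a median of 221 times the level of EGFR per length, with libraries between 150 and 479 times.

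**Figure D5:**
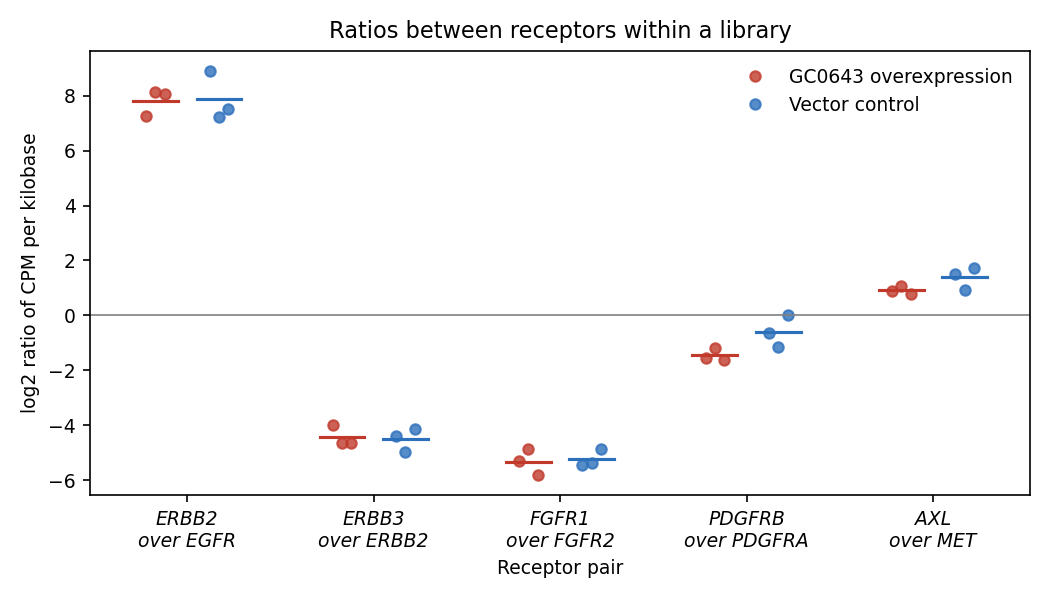
Log2 ratio of CPM per kilobase within each library for 5 receptor pairs, with GC0643 overexpression libraries in red on the left and Vector control libraries in blue on the right, and a bar at each group mean. The groups separate for PDGFRB over PDGFRA alone, at -1.64 to -1.18 against -1.16 to -0.00.

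Downstream of the receptors, the lists described here held 0 genes that passed the test. Of 28 adaptors and docking proteins, 24 were tested, 5 were higher in GC0643 overexpression libraries at an unadjusted p under 0.05 and 0 were lower, beside 13.1% and 5.26% of all genes. After GC correction 0 were past it, beside 559 higher and 687 lower of all 19528 genes. PTPN11, the SHP2 phosphatase that links receptors to RAS, averaged 95.1 ± 8.23 CPM in GC0643 overexpression libraries and 70.5 ± 16.6 CPM in Vector control libraries (SD, n = 3 each), with an edgeR adjusted p of 0.26. RASA1, a GTPase activator that turns RAS off, had a log2 fold change of 0.44 (edgeR adjusted p = 0.26). GRB2 and CRKL, adaptors with SH2 domains, had log2 fold changes of -0.12 and 0.09 (edgeR adjusted p = 0.53 and 0.65). After GC correction PTPN11 was at 0.17 and RASA1 at 0.23.

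Of 17 genes of the RAS and MAP kinase pathway, 16 were tested, and 5 had an unadjusted p under 0.05 above 0 and 1 below 0, beside 13.1% and 5.26% of all genes. After GC correction 0 had, beside 559 higher and 687 lower of all 19528 genes. NRAS, a RAS GTPase, had 43.0, 42.3 and 44.3 CPM in GC0643 overexpression libraries, against 27.6, 40.8 and 23.2 CPM in Vector control libraries. Its groups did not overlap, and the log2 fold change was 0.50 (edgeR adjusted p = 0.26), or 0.17 after GC correction. MAP2K2, the MEK2 kinase, had a log2 fold change of -0.27 (edgeR adjusted p = 0.27) and -0.04 after GC correction.

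Of 18 genes of PI3K and AKT signalling, 17 were tested, and 2 had an unadjusted p under 0.05 above 0 and 2 below 0, beside 13.1% and 5.26% of all genes. After GC correction 0 had, beside 559 higher and 687 lower of all 19528 genes. RICTOR, a subunit of the mTORC2 complex that phosphorylates AKT, had a log2 fold change of 0.41 and INPPL1, the SHIP2 lipid phosphatase, one of -0.27 (edgeR adjusted p = 0.26 and 0.27), which became 0.04 and -0.06 after GC correction. PIK3R2, a regulatory subunit of PI3K, and the kinase AKT1 had log2 fold changes of -0.15 and -0.21 (edgeR adjusted p = 0.49 and 0.32), or 0.08 and -0.00 after GC correction.

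Of 24 genes for ubiquitination and negative regulation of receptors, 23 were tested, and 4 had an unadjusted p under 0.05 above 0 and 2 below 0, beside 13.1% and 5.26% of all genes. After GC correction 1 and 2 had, beside 559 higher and 687 lower of all 19528 genes. The median log2 fold change was 0.22 and became -0.02 after GC correction. PTPRG, a receptor tyrosine phosphatase, had 38.9, 34.5 and 38.4 CPM in GC0643 overexpression libraries, against 23.0, 30.4 and 24.99 CPM in Vector control libraries. Its groups did not overlap, with a log2 fold change of 0.51 (edgeR adjusted p = 0.26). EPN1, an endocytic adaptor, had a log2 fold change of -0.30 (edgeR adjusted p = 0.26). PTPRF, another receptor phosphatase, had one of -0.21 (edgeR adjusted p = 0.36). After GC correction PTPRG was at 0.29, EPN1 at -0.22 and PTPRF at -0.01.

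The markers of other cell types were set beside the PDGF receptors, since fibroblasts and pericytes are where those receptors are best known. Of the 10 fibroblast and pericyte markers, 4 had an unadjusted p under 0.05 above 0 and 1 below 0, beside 13.1% and 5.26% of all genes. After GC correction 2 and 0 had, beside 559 higher and 687 lower of all 19528 genes. LUM and DCN, matrix proteoglycans of fibroblasts, had log2 fold changes of 0.78 and 0.47 (edgeR adjusted p = 0.26 each) and groups that did not overlap. After GC correction LUM was at 0.43 and DCN at 0.14. COL3A1 and COL1A1 had log2 fold changes of 0.02 and -0.08, or 0.09 and 0.14 after GC correction. In bulk RNA, fewer cells of a kind and less RNA per cell cannot be told apart, and the part of such markers in the values of PDGFRA and PDGFRB was not tested.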

How the data were processed

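RNA-seq counts of 6 libraries of HGC-27 cells were analysed, 3 per group. The authors deposited raw counts per Ensembl gene, from libraries made with the NEBNext Ultra kit. The submitters' processing notes name Trimmomatic (0.32), HISAT2 (2.1.0), featureCounts (2.0.0) and the build GRCh38. The study's methods give counting options (featureCounts with -p and -O, no strand option) for its tumour RNA-seq only. Those used for these libraries are not given in the sources used here. Positions were found for 58472 of 58825 genes in GENCODE version 44, together with canonical transcript length and GC content.

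Genes were kept by filterByExpr, scaled by TMM and tested with edgeR 4.0.16 (quasi-likelihood, group as the only term) in R 4.3.3, with Benjamini-Hochberg adjustment over 19528 genes. The biological coefficient of variation was 14.8%. CPM values use TMM-scaled totals. Log2 fold changes are GC0643 overexpression over Vector control. The procedure was tested on simulated data. Alternatives used limma 3.58.1 and DESeq2 1.42.0, other normalizations, filters and lengths, GC or length correction (loess, span 0.3), a replicate block and leaving out each library. Fits combining GC correction with a library left out were chosen after seeing the data.

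The receptors and 16 gene lists were chosen with earlier results of these data known. Named in the text are all 10 receptors, up to 4 genes of each list (the 2 highest by mean CPM and the 2 with the smallest unadjusted p), the 5 other receptor tyrosine kinases highest per length, and genes whose exons overlap a receptor. Other genes named were chosen after their values were seen. Some genes that this rule names are not reported here.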

Additional observations from a re-analysis of the deposited data

How the results depend on the processing

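Over 20 alternative settings, EGFR, IGF1R, AXL, FGFR2 and PDGFRA kept their sign in all, and the cause of the changes below was not tested. The sign of FGFR1 turned with DESeq2 (-0.022), limma voom (-0.002), DESeq2 size factors (-0.0242), protein-coding genes only (-0.0161) and length correction (-0.14), and lay between -0.19 and 0.20 with 1 library left out. ERBB2 turned to 0.0102 and MET to -0.0567 with GC correction, to 0.0104 and -0.0537 with a replicate block and GC correction, and to 0.0129 and -0.0554 with GC correction and no Vector control replicate 2. With GC correction and no Vector control replicate 3, ERBB3 was at 0.12 and PDGFRB at 0.0207. With 1 library left out, PDGFRA lay between 0.34 and 0.70 and ERBB3 between -0.41 and 0.0778. The pair differences then lay between -0.38 and 0.46 for ERBB2 over EGFR, between -0.17 and 0.25 for ERBB3 over ERBB2 and between -0.33 and 0.14 for FGFR1 over FGFR2.

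PDGFRA stopped being past an unadjusted p of 0.05 with GC correction, with a replicate block and GC correction, with GC correction and no Vector control replicate 3, and when GC0643 overexpression replicate 1 was left out, which left 0 receptors higher. Receptors lower at that threshold numbered 2 with no filter on low counts (PDGFRB and AXL), beside 1353 lower of all genes. With length correction they numbered 4 (ERBB2, IGF1R, PDGFRB and AXL), beside 1701 lower of all genes. With 1 library left out, 0 to 1 receptors passed the adjusted p, 0 to 1 were higher and 0 to 3 lower at the unadjusted p, and 0 to 1 were higher past fold 1.5.

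Of all genes, the adjusted p was passed by 16 with the likelihood ratio test, 1 with DESeq2, 1 with DESeq2 size factors, 224 with no filter, 24 with a replicate block, 1 with a replicate block and GC correction, 3 with GC correction and no Vector control replicate 3, and 0 to 3813 with 1 library left out, 3813 without Vector control replicate 2. Higher at the unadjusted p were 559 with GC correction, 1653 with length correction, 365 with a replicate block and GC correction, 487 and 1201 with GC correction and no Vector control replicate 3 or 2, and 827 to 4564 with 1 library left out. Lower were 314 with a replicate block, 1701 with length correction, 391 with a replicate block and GC correction, 472 with GC correction and no Vector control replicate 3, and 367 to 2842 with 1 library left out. Past fold 1.5, 196 with DESeq2, 528 with no filter, 165 of protein-coding genes, 121 with GC correction, 106 with a replicate block and GC correction, 166 with GC correction and no Vector control replicate 3 and 225 to 1741 with 1 library left out were higher. There, 408 with no filter, 92 of protein-coding genes, 382 with GC correction and no Vector control replicate 2 and 124 to 400 with 1 library left out were lower.

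Of the list medians, that of HGF and its regulators was -0.53 with a CPM over 1. With GC correction the FGF ligands were at -0.0389, the negative regulators at -0.0208 and the leukocyte markers at 4e-04, and with a replicate block added at -0.0131, -0.0198 and -0.0011. With length correction the PI3K list was at -0.12 and the fibroblast markers at -0.0879. With 1 library left out, medians lay between -0.10 and 0.23 for EGF ligands, -0.24 and 0.0183 for the IGF list, -0.13 and 0.0226 for adaptors, -0.0729 and 0.0934 for the PI3K list, 0.0938 and 0.37 for mesenchymal markers and -0.026 and 0.17 for fibroblast markers.

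The labels do not say whether replicate numbers pair the samples. The correlations of same-numbered libraries' deviations were -0.21, -0.03 and -0.31. Those of libraries with different numbers lay between -0.17 and 0.31. With so few libraries these values cannot exclude a pairing. With a replicate block PDGFRA was at 0.52 (edgeR adjusted p = 0.36), and no receptor passed. EGFR and FGFR1, with at most 45 counts in a library, are limited by depth.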

Other observations

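Among the 48 receptor tyrosine kinases outside the 10, 30 were tested. Of these, 4 were higher and 2 were lower in GC0643 overexpression libraries at an unadjusted p under 0.05, shares close to the 13.1% and 5.26% of all genes. After GC correction 1 was higher and 1 was lower, beside 559 and 687 of all 19528 genes. EPHA5, an ephrin receptor known from the nervous system, had 23.2, 16.6 and 17.9 CPM in GC0643 overexpression libraries, against 10.3, 15.5 and 13.6 CPM in Vector control libraries. Its groups did not overlap, with a log2 fold change of 0.55 (SE 0.18, edgeR adjusted p = 0.26) and 0.21 after GC correction. RYK, a Wnt receptor with an inactive kinase, had 36.4, 31.3 and 34.2 CPM in GC0643 overexpression libraries, against 22.9, 30.6 and 19.8 CPM in Vector control libraries. Its groups did not overlap either, with a log2 fold change of 0.48 (SE 0.16, edgeR adjusted p = 0.26) and 0.31 after GC correction. PTK7, EPHB4, FGFR4, FGFR3 and ROR2 had log2 fold changes of -0.19, -0.16, -0.24, -0.13 and -0.20, with edgeR adjusted p between 0.31 and 0.53, and values between -0.01 and 0.07 after GC correction.

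Among mesenchymal markers, 5 of 6 tested had a positive log2 fold change, beside 10136 of all 19528 genes tested. Their median was 0.17, and 0.01 after GC correction. FN1, fibronectin, averaged 52.2 ± 13.4 CPM in GC0643 overexpression libraries and 36.9 ± 7.15 CPM in Vector control libraries (SD, n = 3 each), with a log2 fold change of 0.50 and 0.52 after GC correction (edgeR adjusted p = 0.26 without it). ZEB1, a repressor of epithelial genes, had log2 fold changes of 0.40 and 0.06 without and with the correction. TWIST1, another such regulator, averaged 344 ± 49.4 CPM in GC0643 overexpression libraries and 405 ± 106 CPM in Vector control libraries (SD, n = 3 each).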
